A study of Homo sapiens with 8 samples.

Results

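The transcripts of 6 genes of eosinophils and basophils were followed across the 4 groups of the study: EPX, PRG2, RNASE2 and RNASE3, which encode the cationic proteins of the eosinophil granule, HDC, which encodes histidine decarboxylase, and GATA2. They were taken by symbol from the 60483 gene identifiers counted in each library, and each of the 6 members matched 1 identifier. The members were chosen by name with the levels and changes of these same 8 libraries already known. Their changes are therefore given as descriptions, and nothing is read from their counts beside the share of all tested genes that passed the same limit.

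The cells were NB4, an established line of acute promyelocytic leukemia that carries the PML/RARα fusion. In all 8 libraries lentivirus had been used to knock down the endogenous fusion, and the knocked-down fusion had been replaced for 72 h. The replacement was an empty vector in the first group, the full-length fusion with an HA tag in the second (full-length cells), and its F158E or ΔIDR mutant, also HA-tagged, in the others. The labels call both mutants incompetent for phase separation. Each group had 2 libraries, no group kept the endogenous fusion untouched, and the labels do not say whether these came from separate cultures, so errors and p-values reflect library-to-library spread alone, possibly of technical origin.

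Eosinophils, basophils and neutrophils are myeloid cells that load their granules with proteins while they mature, and the sets of proteins partly overlap. Eosinophil peroxidase (EPX) makes oxidants from bromide and thiocyanate, major basic protein (PRG2) forms the crystalline core of the granule, and the eosinophil-derived neurotoxin (RNASE2) and the eosinophil cationic protein (RNASE3) are ribonucleases. Histidine decarboxylase makes the histamine that basophils and mast cells store, and GATA2 is a zinc finger transcription factor of progenitors, mast cells and basophils.

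Gene counts summed to between 16779364 and 21965389 per library, and levels are CPM, the count scaled to the library total with TMM factors. Fold changes are log2 values ± SE from edgeR, and an error on a CPM is the SD over 2 libraries. PML and RARA, whose counts include any transgene RNA, moved with the groups. RARA was at 23.1 ± 1.41 CPM in empty-vector cells, 77.0 ± 1.88 in full-length cells, 32.3 ± 0.181 in F158E cells and 1358 ± 9.67 in ΔIDR cells, and PML was at 51.9 ± 1.28, 124 ± 4.33, 65.9 ± 0.219 and 442 ± 3.42 CPM across those groups. The mutants thus differ from the full-length fusion in construct and in the amount of its RNA at once, and these cannot be told apart here. The promyelocyte gene MPO stood at 3449 to 4139 CPM as a group mean, while ELANE, another primary granule gene, had 0 to 2 counts. Of the defining markers of mature eosinophils, basophils and mast cells, CCR3 had 0 to 5 counts per library, FCER1A 0 in all and KIT at most 1. A count of 0 need not mean that a gene was off, since XBP1, a gene of most cells, was also at 0 in all libraries. In bulk RNA, more cells with a gene switched on and more RNA per cell cannot be told apart.

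The ribonuclease pair shows how alike in sequence the members can be. RNASE3 and RNASE2 lie 63.1 kb apart on chromosome 14, and their upstream stretches are printed because the 2 genes had the same order of groups at very different levels. Both come from the RefSeq promoter windows on GRCh38.p14, plus strand, chr14:20955237-20955451 for RNASE2 and chr14:20891135-20891384 for RNASE3. The first ends at the annotated GENCODE exon and the second at the RefSeq start. Capitals mark a match to TTGCNNAA, a C/EBP motif.
RNASE2: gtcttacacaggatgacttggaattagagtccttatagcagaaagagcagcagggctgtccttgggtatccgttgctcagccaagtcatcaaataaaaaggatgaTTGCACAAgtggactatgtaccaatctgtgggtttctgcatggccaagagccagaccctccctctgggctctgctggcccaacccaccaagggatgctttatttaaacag
RNASE3: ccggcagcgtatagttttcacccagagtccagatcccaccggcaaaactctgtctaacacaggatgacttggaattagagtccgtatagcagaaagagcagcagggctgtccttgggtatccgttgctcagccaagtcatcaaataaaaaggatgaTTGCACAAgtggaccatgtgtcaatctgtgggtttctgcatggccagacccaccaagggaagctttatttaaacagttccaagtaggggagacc
Of 181 aligned bases, 174 (96.1%) were identical, with an unbroken run of 86, and 34 bases in the RNASE2 stretch had no partner. The match TTGCACAA lay 145 to 138 bases before the RefSeq start of RNASE2 and 94 to 87 bases before that of RNASE3. Of 35116 RefSeq windows of 250 upstream bases, 9.05% held TTGCNNAA on either strand. The GATA factor motif GATAA, the PU.1 motif GAGGAA, the nuclear receptor motif GGTCA and the TATA box TATAAA, searched on both strands, had no match in either stretch, and 20.4%, 23.6%, 32.6% and 10.7% of all windows held them. RefSeq windows for EPX and PRG2 were not used here.

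RNASE2 (ENSG00000169385.2, chromosome 14, 20955452 to 20956436 on the plus strand of GRCh38) was at 130 and 146 CPM in empty-vector cells, 108 and 110 in full-length cells, 131 and 135 in F158E cells, and 189 and 183 in ΔIDR cells. The full-length libraries were the lowest and the ΔIDR libraries the highest, and F158E lay inside the range of empty vector. RNASE3 (ENSG00000169397.3, 20891399 to 20892348) had 66 and 75 counts in empty-vector cells, 43 and 44 in full-length cells, 79 and 75 in F158E cells, and 90 and 110 in ΔIDR cells. Its CPM had the order of RNASE2, from 2.51 ± 0.0855 in full-length cells to 5.23 ± 0.277 in ΔIDR cells. Per kb of exon, the RNASE2 level was 33.1 to 42.1 times that of RNASE3 in the 8 libraries. The pair was the closest of the 15 pairs of members, with a root mean square distance of 0.11 between profiles of log2 CPM, each centred on its own mean.

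The transcripts of the pair were 88.9% identical over 720 aligned bases. Of the stretches of 50 bases in the RNASE2 transcript 3.26% also occurred in another gene's transcript, as did 5.37% of those in RNASE3, and none of 100 bases did. Reads that fit both genes could thus be lost or split only over short stretches, and the read length is not given in the sources used here. Of the other 11 genes of this ribonuclease family on the list fixed for it, RNASE6 alone passed the filter on low counts, at 0.548 to 1.20 CPM as group means, and it was not called in any comparison. The cytosolic ribonuclease inhibitor gene RNH1 fell by 0.47 ± 0.06 from empty-vector to full-length cells (edgeR, Benjamini-Hochberg adjusted p = 1.03e-09), and was higher in ΔIDR cells than in full-length cells by 0.52 ± 0.06 (adjusted p = 3.07e-11).

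**Figure D1:**
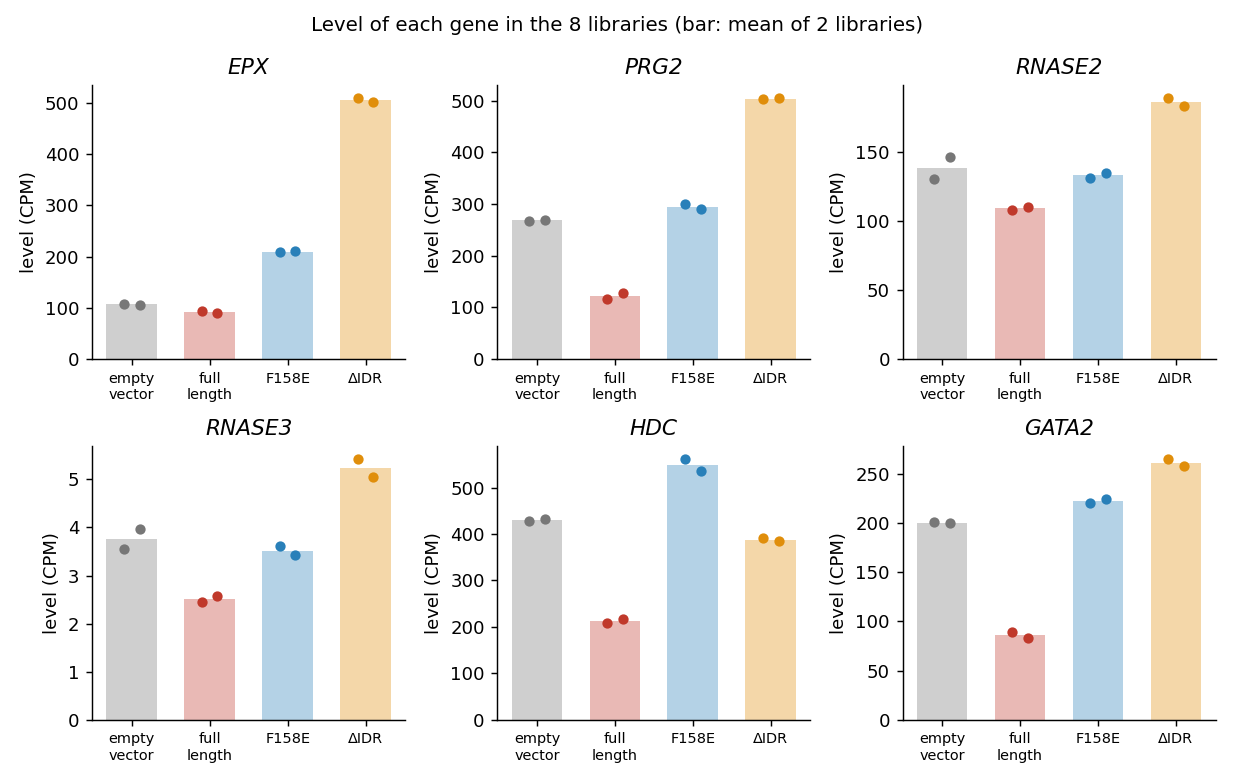
Level of each gene in CPM (vertical axis, from 0) in the 4 groups; points are the 2 libraries of a group and bars their mean. Full-length PML/RARα is lowest for each of the 6 genes, ΔIDR is highest for 5, and F158E is highest for HDC.

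EPX (ENSG00000121053.5, chromosome 17, 58192737 to 58205174, plus strand) had the widest range of the members. It was at 108 and 106 CPM in empty-vector cells, 94.2 and 89.6 in full-length cells, 209 and 211 in F158E cells, and 510 and 502 in ΔIDR cells. Empty vector and full-length cells were close together, and both mutants lay well above them with no overlap. ΔIDR cells thus held 4.74 times the empty vector level and 5.50 times the full-length level, and F158E cells 1.97 and 2.28 times.

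PRG2 (ENSG00000186652.8, chromosome 11, 57386794 to 57390657, minus strand) was at 267 and 269 CPM in empty-vector cells, 116 and 127 in full-length cells, 299 and 291 in F158E cells, and 503 and 505 in ΔIDR cells. Unlike EPX, it was far lower in full-length than in empty vector cells, at 45.4% of their level against 86.1% for EPX. F158E cells were close to empty vector at 1.10 times its level, and ΔIDR cells held 1.88 times as much. In GENCODE 29, 791 of the 1838 exonic bases of PRG2 are shared with the gene AP000781.2, which had 43 to 79 counts per library. How the authors assigned reads in the shared part is not given in the sources used here, so the PRG2 level is uncertain to that extent.

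PRG3, the paralog of PRG2 that lies 5.64 kb away, had few counts. There were 6 and 18 counts in empty-vector cells, 2 and 2 in full-length cells, 24 and 23 in F158E cells, and 41 and 56 in ΔIDR cells. From full-length cells it rose by 3.15 ± 0.81 in F158E cells (adjusted p = 8.07e-04) and by 4.38 ± 0.77 in ΔIDR cells (adjusted p = 1.08e-06). Its difference between ΔIDR and empty vector, 1.97 ± 0.60 (adjusted p = 0.0185), was lost without empty vector replicate 1 or without either ΔIDR replicate, at adjusted p = 0.286, 0.0772 and 0.125. Its fall of 2.41 ± 0.86 from empty-vector to full-length cells (adjusted p = 0.0159) was lost without empty vector replicate 2 or without either full-length replicate, at adjusted p = 0.317, 0.066 and 0.0619.

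The make-up of the granule transcripts differed between groups, as did their sum. EPX, PRG2, RNASE2 and RNASE3 summed to 508 and 525 CPM in empty-vector cells, 321 and 329 in full-length cells, 643 and 640 in F158E cells, and 1206 and 1195 in ΔIDR cells. The share of EPX in this sum was 21.2% and 20.2% in empty-vector cells, 29.4% and 27.2% in full-length cells, 32.4% and 33.0% in F158E cells, and 42.2% and 42.0% in ΔIDR cells. RNASE2 went the other way between full-length and ΔIDR cells, from 33.6% and 33.4% to 15.6% and 15.3%.

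**Figure D2:**
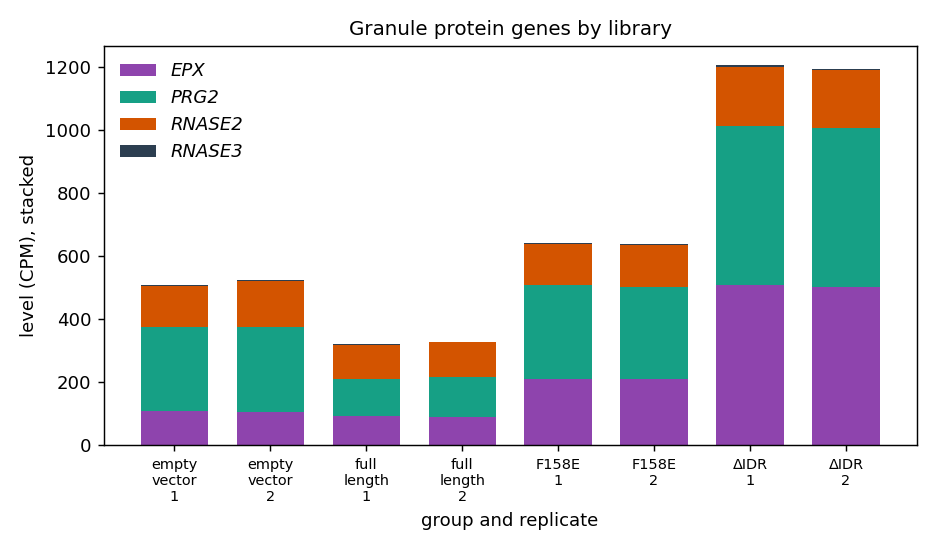
Stacked CPM (vertical axis) of the granule protein genes EPX, PRG2, RNASE2 and RNASE3 in each of the 8 libraries. The sum runs from 321 in a full-length library to 1206 in a ΔIDR library, and RNASE3 is a thin band throughout.

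EPX sits in a cluster of peroxidase genes on chromosome 17, 13.4 kb from LPO and 64.7 kb from MPO. MPO, the peroxidase of neutrophil granules, changed little: it fell by 0.14 ± 0.02 from empty-vector to full-length cells, and stood 0.09 ± 0.02 and 0.12 ± 0.02 above empty vector in F158E and ΔIDR cells (adjusted p = 7.68e-13, 3.78e-06 and 5.37e-10). LPO, at group means of 3.36 to 5.06 CPM, was not called in any comparison. The level of MPO per kb of exon was 27.4 and 27.3 times that of EPX in empty-vector cells and 6.19 and 6.39 times in ΔIDR cells. Within 250 kb of EPX, 16 other genes were tested. In ΔIDR against empty-vector cells 2 of the 16 were called, both higher and MPO among them (median 0.12), beside 5.06% of all tested genes. Against full-length cells 7 were higher and 2 lower in ΔIDR cells (median 0.24), beside 24.9% of all tested genes in each direction.

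HDC (ENSG00000140287.9, chromosome 15, 50241947 to 50266026, minus strand) departed from this order. It was at 427 and 433 CPM in empty-vector cells, 208 and 216 in full-length cells, 562 and 536 in F158E cells, and 391 and 384 in ΔIDR cells. Full-length cells were again lowest, but F158E and not ΔIDR was highest, and ΔIDR fell below empty vector, to 90.1% of its level. Of 4 other tested genes of histamine handling, 2 fell and 0 rose from empty-vector to full-length cells, beside 24.4% and 24.2% of all tested genes. The receptor gene HRH1 fell by 1.07 ± 0.15, and the diamine oxidase gene AOC1 from 6.22 ± 0.359 to 2.20 ± 0.854 CPM (edgeR adjusted p = 3.19e-09 and 4.62e-06). In F158E cells, where HDC was highest, 0 of the 4 rose and 1 fell against empty vector, beside 3.98% and 4.67%. In ΔIDR cells 0 rose and 0 fell, beside 5.06% and 5.23%. The vesicle transporter gene SLC18A2, which loads histamine into granules, was at 1.01 to 2.30 CPM as group means and was not called. ATP8B4, a flippase gene 59.1 kb from HDC, fell by 1.09 ± 0.04 from empty-vector to full-length cells (adjusted p = 3.19e-41). Of 7 genes tested within 250 kb of HDC, 4 fell there (median -0.23), beside 24.4% of all tested genes. SLC27A2, 5.55 kb away, fell by 0.27 ± 0.05, and GABPB1, 9.37 kb away, was not called. RN7SL494P, which overlaps HDC, fell by 2.86 ± 1.05 from a mean of 0.668 CPM.

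GATA2 (ENSG00000179348.10, chromosome 3, 128479427 to 128493185, minus strand) was at 201 and 200 CPM in empty-vector cells, 89.1 and 83.1 in full-length cells, 220 and 224 in F158E cells, and 265 and 258 in ΔIDR cells. The groups did not overlap, and full-length cells held 42.9% of the empty vector level, the lowest such share of the 6 members. The antisense gene GATA2-AS1, which overlaps GATA2 without sharing exonic bases in GENCODE 29, had 50 and 26 counts in empty-vector cells, 5 and 6 in full-length cells, 54 and 89 in F158E cells, and 87 and 91 in ΔIDR cells. It fell by 2.66 ± 0.51 from empty-vector to full-length cells (adjusted p = 7.18e-06). The library kit does not mark the strand, so intronic reads of the pair cannot be told apart.

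Across comparisons, 5 of 6 members were called lower in full-length cells than in empty-vector cells, against 24.4% of all 13982 tested genes (24.2% were higher), with a median log2 change of -0.80 for the members and 0.0011 for all genes. RNASE3, at -0.58 ± 0.31, was the one not called. From full-length cells to F158E, 5 members were called higher (22.2% of all genes, with 21.8% lower), with a median of 1.23, and to ΔIDR all 6 were (24.9%), with a median of 1.33. These comparisons share the full-length libraries.

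Against empty vector the mutants parted. With F158E, 4 members were called higher (3.98% of all genes, with 4.67% lower) with a median of 0.14, EPX by 0.98 ± 0.04, HDC by 0.35 ± 0.03, and PRG2 and GATA2 by 0.14 ± 0.04 each. The small PRG2 and GATA2 differences depended on single libraries: without empty vector replicate 1 neither was called (adjusted p = 0.0688 and 0.0862) and the count was 2. PRG2 was also lost without F158E replicate 1 (adjusted p = 0.105), and GATA2 without empty vector replicate 2 or F158E replicate 2 (adjusted p = 0.119 and 0.131). With ΔIDR, 4 members were called higher (5.06%), EPX by 2.24 ± 0.04, PRG2 by 0.91 ± 0.04, RNASE2 by 0.43 ± 0.05 and GATA2 by 0.38 ± 0.04, and HDC was called lower (5.23%) by 0.15 ± 0.03. Between the mutants, ΔIDR was above F158E for EPX, PRG2, RNASE2 and GATA2 (9.17% of all genes were called higher) and below it for HDC (9.37% lower), and RNASE3 was not called at 0.57 ± 0.28.

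**Figure D3:**
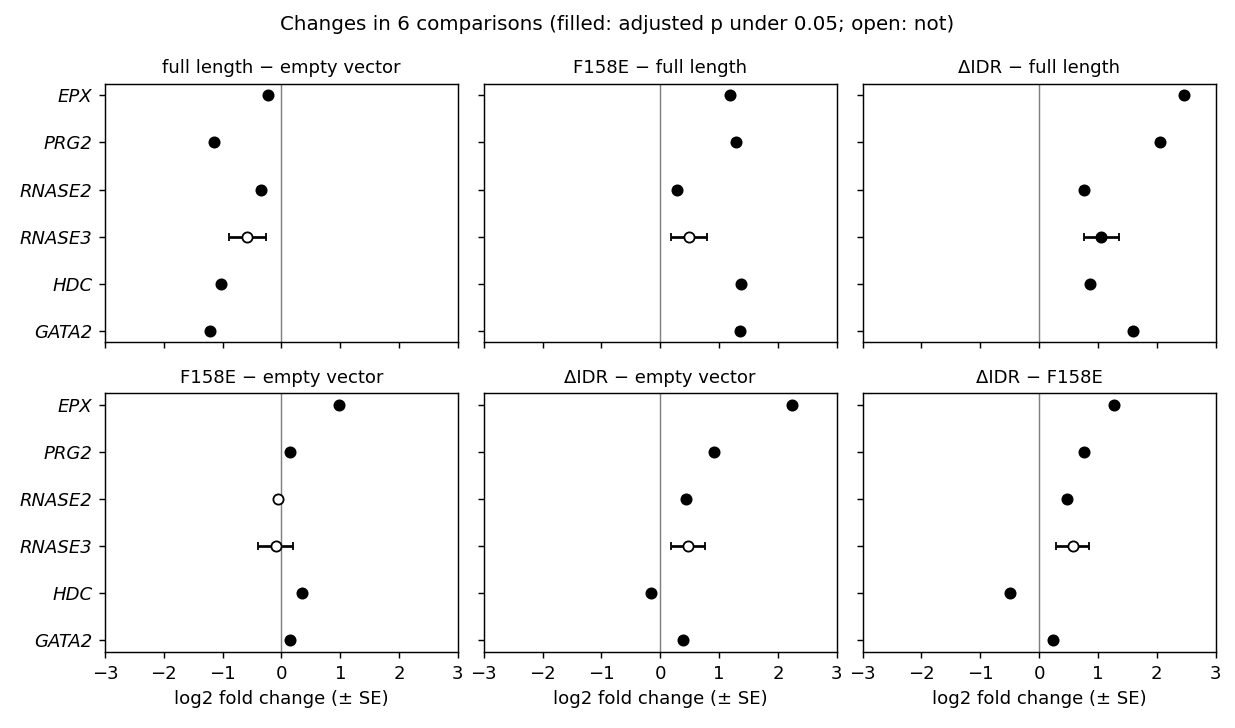
Log2 fold change (horizontal axis) of each gene (rows) in the 6 comparisons, with bars of 1 SE that are mostly hidden by the points; filled points passed an adjusted p of 0.05. RNASE3, with 43 to 110 counts, has the widest bars, and HDC alone lies below 0 between ΔIDR and F158E.

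Other genes of the eosinophil program were counted at low levels. Of 11 further eosinophil genes on a list fixed from textbook markers, 8 passed the filter on low counts, CLC through its ΔIDR libraries alone, so that CLC had to differ there. Leaving out CLC, 3 of 7 were called higher and 1 lower in ΔIDR than in empty-vector cells (median 0.94, or 1.46 with CLC), beside 5.06% and 5.23% of all tested genes. In F158E cells 0 of the 7 were called (median 0.33, or 0.17 with CLC), where 3.98% of all tested genes were higher and 4.67% lower. In full-length cells 3 of the 7 were lower (median -0.69), beside 24.4% of all tested genes. Over all 8 with CLC, 1 gene in each direction had an unadjusted edgeR p under 0.05 for F158E, and DESeq2 called 0.

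CLC, which encodes the Charcot-Leyden crystal protein, had 0 and 6 counts in empty-vector cells, 0 and 0 in full-length cells, 5 and 0 in F158E cells, and 133 and 184 in ΔIDR cells. ΔIDR cells held at least 93.7 times the full-length level, taking 3 counts over the group as the floor. Because CLC passed the filter through ΔIDR alone, its difference there was fixed by the selection, and its edgeR call is not read as a result. DESeq2 did not call CLC in ΔIDR against empty vector (adjusted p = 0.292). SIGLEC8, an inhibitory receptor of eosinophils and mast cells, was at 1.01 ± 0.166 CPM in empty-vector cells and 5.43 ± 0.941 in ΔIDR cells, a rise of 2.41 ± 0.40 (edgeR adjusted p = 1.81e-06). The interleukin 5 receptor gene IL5RA rose by 2.12 ± 0.49 in the same comparison (adjusted p = 8.28e-04). ADGRE1, a gene of eosinophils and macrophages, fell by 1.01 ± 0.29 (adjusted p = 0.00945), a call lost without empty vector replicate 2 and without ΔIDR replicate 2, at adjusted p = 0.13 and 0.0717.

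Of 20 further basophil and mast cell genes, 9 were tested. HPGDS, a prostaglandin D synthase gene, had 0 counts in both empty vector libraries and 15 and 39 in ΔIDR cells, at least 17.5 times as much by the same floor, and like CLC it passed the filter through ΔIDR alone. Of the other 8, 1 was called higher and 1 lower in ΔIDR than in empty-vector cells (median 0.86), beside 5.06% and 5.23% of all tested genes. Over all 9, DESeq2 called 1 higher and 0 lower, where edgeR called 2 and 1. The Fc receptor chain gene FCER1G rose by 0.76 ± 0.15 (adjusted p = 4.57e-05). The mast cell factor gene MITF was lower by 0.94 ± 0.32 (adjusted p = 0.0407), a call lost under 6 of 13 alternatives. These were DESeq2, no filter and only the compared groups (adjusted p = 0.0689, 0.0667 and 0.0809), and leaving out either empty vector replicate or ΔIDR replicate 2 (adjusted p = 0.134, 0.164 and 0.309). In full-length cells 1 of the 9 was higher and 1 lower than in empty-vector cells (median 0.00), beside 24.2% and 24.4% of all tested genes. These were MITF and the tryptase gene TPSAB1, each lost when single libraries were left out.

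Of 15 genes for cytokine receptors of these lineages and their kinases, 10 were tested. Between empty-vector and full-length cells 5 fell and 0 rose (median -0.16), and the other 5 did not pass. In ΔIDR cells 4 rose, 0 fell and 6 did not pass (median 0.07), and in F158E cells 2 fell, 0 rose and 8 did not pass (median -0.05). Of all tested genes, 24.4% were lower in full-length, 5.06% higher in ΔIDR and 4.67% lower in F158E than in empty-vector cells. DESeq2 gave the same counts. At an unadjusted edgeR p under 0.05, 1 receptor gene was higher in full-length and 1 lower in ΔIDR than in empty-vector cells. IL1RL1, the receptor for interleukin 33, was at 29.5 ± 1.54 CPM in empty-vector cells, 11.1 ± 0.239 in full-length cells, 32.3 ± 2.41 in F158E cells and 57.0 ± 0.804 in ΔIDR cells. CSF2RB, the shared chain of the interleukin 3, interleukin 5 and GM-CSF receptors, fell by 1.06 ± 0.13 in full-length cells and rose by 0.71 ± 0.11 in ΔIDR cells (adjusted p = 1.08e-11 and 5.45e-07). Its fall of 0.43 ± 0.12 in F158E cells (adjusted p = 0.00856) was lost without empty vector replicate 2 or F158E replicate 1, at adjusted p = 0.386 and 0.109. PTGDR2, a prostaglandin D receptor gene, rose by 1.36 ± 0.31 in ΔIDR cells (adjusted p = 7.96e-04), a call lost without empty vector replicate 1 at adjusted p = 0.0534.

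Among 27 further regulators, 25 were tested, of which 16 fell and 4 rose in full-length cells against empty vector, 1 rose and 0 fell in F158E cells, and 6 rose and 4 fell in ΔIDR cells. The shares of all tested genes were 24.4% lower and 24.2% higher in full-length cells, 3.98% higher in F158E cells, and 5.06% higher and 5.23% lower in ΔIDR cells. For F158E, 4 regulators were lower at an unadjusted edgeR p under 0.05 and DESeq2 called 0 lower. In ΔIDR cells DESeq2 called 4 higher and 4 lower. By edgeR, the 4 that rose in full-length cells included LDB1, STAT3 and STAT6. The 4 that fell in ΔIDR cells by edgeR included HHEX, RUNX1 and STAT5A. The regulators described next all fell in full-length cells. GATA1, the sister factor of GATA2 in eosinophils and basophils, had 98 and 76 counts in empty-vector cells, 9 and 42 in full-length cells, 111 and 150 in F158E cells, and 285 and 324 in ΔIDR cells. It fell by 1.65 ± 0.31 in full-length cells (adjusted p = 3.25e-06), and the full-length libraries differed: the fall was 0.92 without full-length replicate 1 and 3.16 without full-length replicate 2. Its rise of 1.78 ± 0.24 in ΔIDR cells (edgeR adjusted p = 4.32e-09) was not called by DESeq2 (adjusted p = 0.0679). GFI1B, a zinc finger repressor, had 52 and 64 counts in empty-vector cells, 3 and 15 in full-length cells, 83 and 73 in F158E cells, and 108 and 117 in ΔIDR cells. It fell by 2.56 ± 0.43 in full-length cells (edgeR adjusted p = 3.57e-07), by 1.82 without full-length replicate 1 and by 4.13 without full-length replicate 2. Its rise of 0.93 ± 0.32 in ΔIDR cells (edgeR adjusted p = 0.0455) was lost without any one of the 4 libraries compared, at 0.80 to 1.09. DESeq2 and the edgeR fit with no filter also lost it, at adjusted p = 0.0662 and 0.0547. ZFPM1, the GATA cofactor FOG1, fell by 1.53 ± 0.27 in full-length cells (adjusted p = 1.49e-06) and did not pass with either mutant against empty vector.

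**Figure D4:**
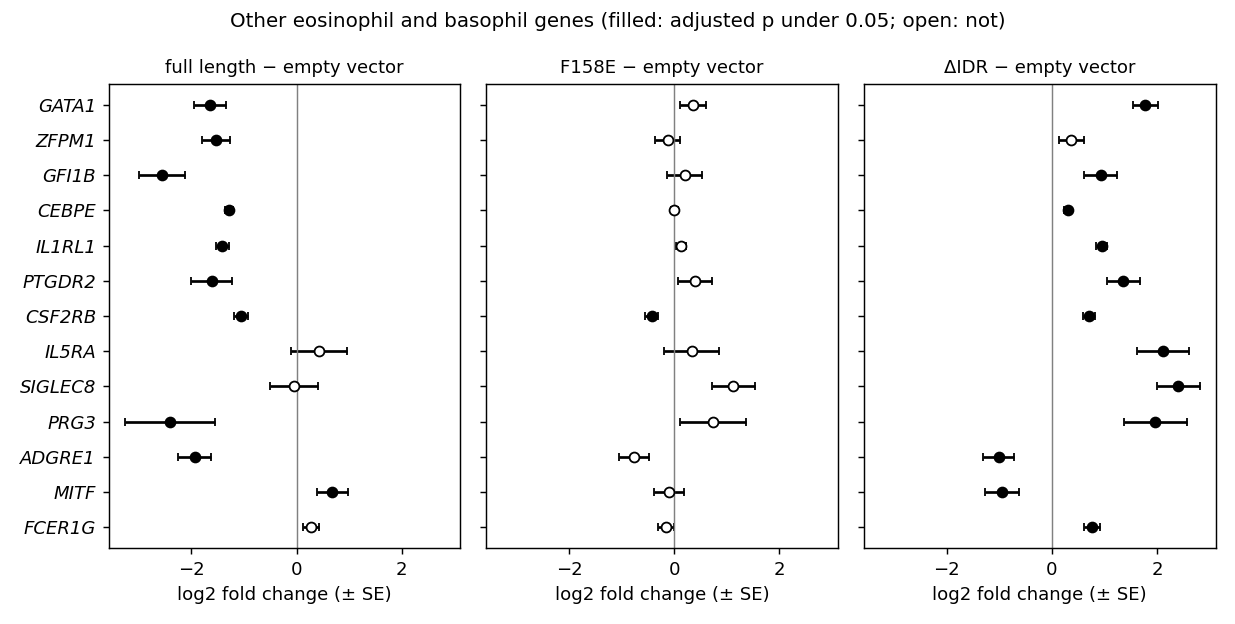
Log2 fold change against empty vector (horizontal axis, ± 1 SE) of related genes (rows) in full-length cells, F158E and ΔIDR; filled points passed an adjusted p of 0.05. CSF2RB is the only filled point in F158E cells, at -0.43. Most of the points shown lie left of 0 in full-length cells and right of 0 in ΔIDR cells. The genes shown were picked from the lists after their values were seen. Over the whole lists the ΔIDR median was -0.03 for regulators and 0.07 for receptors and kinases. It was 0.94 for eosinophil genes without CLC, and 0.86 for basophil and mast cell genes without HPGDS.

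Neutrophil granule genes were counted for comparison. Of 13 tested primary granule genes other than RNASE2, 11 fell and 2 rose from empty-vector to full-length cells (median -0.42). In F158E cells 1 rose and 5 fell (median -0.05), and in ΔIDR cells 8 rose and 2 fell (median 0.16). Of 9 tested genes of later neutrophil granules and maturation, DEFA3 and S100A12 passed the filter through ΔIDR alone. Of the other 7, 5 fell and 1 rose in full-length cells (median -1.42), 4 fell and 0 rose in F158E cells (median -0.56), and 4 rose and 1 fell in ΔIDR cells (median 0.63, or 2.95 over all 9). For F158E, 1 of the 9 was higher at an unadjusted edgeR p under 0.05 and DESeq2 called 0 higher. Beside these stand 24.4% lower and 24.2% higher among all tested genes in full-length cells, 4.67% and 3.98% in F158E cells, and 5.23% and 5.06% in ΔIDR cells.

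Marker genes of monocytes summed to 180 to 199 CPM in empty-vector cells, 98.4 to 100 in full-length cells, 126 to 131 in F158E cells and 203 to 212 in ΔIDR cells. The sum and the single genes differed in direction for ΔIDR against empty vector. Of 11 tested genes, CLEC7A passed the filter through ΔIDR alone. Of the other 10, 1 was higher and 3 lower (median -0.42, or -0.37 with CLEC7A), beside 5.06% and 5.23% of all tested genes. S100A9 went from 6.48 to 50.5 CPM, while FCN1 went from 63.6 to 46.3 and LYZ from 47.5 to 33.3. Of the 10 genes without CLEC7A, 7 fell in full-length cells (median -1.28), beside 24.4% of all tested genes. In F158E cells 3 of them fell (median -0.31, or -0.43 with CLEC7A), beside 4.67%.

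Of 14 megakaryocyte markers 6 were tested, and their summed level was 147 to 149 CPM in empty-vector cells, 111 to 118 in full-length cells, 144 to 145 in F158E cells and at least 152 in both ΔIDR libraries. Of the 6 tested, TUBB1 passed the filter only with its ΔIDR libraries. Of the other 5, 4 fell in full-length cells against empty vector (median -0.69, or -0.58 with TUBB1), beside 24.4% of all tested genes. In ΔIDR cells 1 rose, the integrin gene ITGA2B, from 8.72 to 14.4 CPM (median 0.21, or 0.40 with TUBB1), beside 5.06%. PF4, PF4V1, GP9 and GP1BB were at 0 in all libraries. Of 17 erythroid markers, 15 had at most 5 counts in every library, and 8 of them, HBA1 and HBA2 included, were at 0. The part of these other lineages' genes in the members' changes was not tested.

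The profiles nearest to each member were sought among 8490 protein-coding genes averaging 3 log2 CPM or more, by root mean square distance of log2 CPM centred on each gene's mean over the 8 libraries. Libraries of a group share their treatment, so these are descriptions. For PRG2 they were IL1RL1 (0.13), the potassium channel gene KCNH2 (0.15) and the leukocyte receptor gene CD84 (0.16). For GATA2 they were CEBPE (0.08), the granulocyte and eosinophil factor, at 65.7, 26.8, 65.6 and 80.6 CPM in empty vector, full-length, F158E and ΔIDR cells, then MANF and NFKBIZ (0.09 each).

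RNASE2 was nearest to the kinase gene SYK (0.05), SUCO (0.06) and RAB8B (0.07), and RNASE3 to CMIP and LCP2 (0.06 each) and AP1S2 (0.09). HDC was nearest to HIVEP2 (0.12), ZNF8 (0.14) and ZBTB16 (0.15), which is the partner of RARA in another translocation of this leukemia. EPX had no close neighbour: VLDLR stood at 0.42, and FGD4 and IL1RL1 at 0.51. PRG2 lay 0.49 from EPX and 0.23 from GATA2, while HDC and EPX were the most distant members at 0.88.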

How the data were processed

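RNA-seq was measured in 8 libraries of NB4 cells, 2 per group, from total RNA depleted of ribosomal RNA and prepared with the NEBNext Ultra kit, per the labels' protocols. The deposited values are raw read counts per gene made by the authors, whole numbers for 60483 gene identifiers. The genome build was hg38 (GRCh38), per the submitters' processing notes, and the aligner, counting program and annotation are not given in the sources used here. A further 5 lines of unassigned reads stayed out of totals and tests, and 87.9 to 88.7% of reads were assigned to genes. Groups and replicate numbers come from the labels.

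Symbols and positions come from GENCODE 29 (GRCh38) and promoter sequences from RefSeq (GRCh38.p14). Genes passing edgeR's filterByExpr (13982, among them all 6 members) were fitted over the 4 groups with edgeR 4.0.16 in R 4.3.3, using TMM factors (0.989 to 1.01) and the quasi-likelihood test, in 6 comparisons. Genes count as called where the p, adjusted by Benjamini-Hochberg over all those tested, is under 0.05. The script was tested on simulated data. The members, gene lists and tests were chosen with earlier results of these data known. Besides the members, PML and RARA, genes were named from the members' small families, from the largest called changes and the defining markers of each list, and by nearest profile. GATA2-AS1, ATP8B4 and the genes picked out of those lists for the text were chosen after their values were seen.

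Alternatives were DESeq2 1.42.0 and its size factors, no filter, a replicate block, only the compared groups, plain library totals for levels, and each library left out. List counts without genes that reach the filter only through ΔIDR were added after seeing the data. Replicates differed by more than counting noise in each group (chi-square per degree of freedom 2.94 to 3.57).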

Additional observations from a re-analysis of the deposited data

Results flagged for a closer look

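For 5 members, the change from full-length cells differed between the mutants, by edgeR's test of ΔIDR against F158E. This is the comparison of the mutants given above, since the full-length level cancels, and not a further result. Of all tested genes, 9.17% were called higher and 9.37% lower in it. On the log2 scale the ΔIDR change exceeded the F158E change by 1.27 for EPX, 0.77 for PRG2, 0.48 for RNASE2 and 0.24 for GATA2. For HDC the difference was -0.50, so HDC had the larger change in F158E cells. RARA and PML counts were also higher in ΔIDR than in F158E cells, and their part in these differences was not tested.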

How the results depend on the processing

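Of 468 fold changes of members under the alternatives, 462 kept their direction and side of the threshold, 5 fell short of the threshold and 1 reversed: RNASE2 in F158E against empty-vector cells, never called, ranged from -0.13 to 0.036 with 1 library left out, the latter without empty vector replicate 2. The members called in that comparison ranged from 2 to 4. The genes called ranged from 638 (without empty vector replicate 1) to 1272 there, and from 884 (without empty vector replicate 2) to 1485 for ΔIDR against empty vector. The cause was not tested. Same-numbered libraries did not deviate together over all tested genes (correlations from -0.0163 to 0.0206). That alone does not settle whether the numbers mark pairs, since counting noise in low genes also weakens such correlations. With the replicate block 1212 genes were called in F158E and 1433 in ΔIDR against empty vector, close to the 1210 and 1439 without it. RNASE3, with 43 to 110 counts, is limited by depth. The alternatives for other genes were chosen after seeing the data.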
